A study of Mus musculus with 6 samples.

Results

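The interferon gamma induced GTPases described here are 10 mouse genes, the guanylate-binding proteins Gbp2, Gbp3, Gbp4, Gbp5, Gbp6 and Gbp7 and the immunity-related GTPases Igtp, Irgm1, Irgm2 and Iigp1. They were chosen by name, with earlier results of these arrays known, so counts over the 10 are descriptions and no test of the list. Probe sets were taken where the platform annotation gave exactly 1 gene symbol and that symbol was one of the 10, which left 65 probe sets of 269751 on the array and all 10 genes of 23152. The study compared regulatory T cells (Tregs, the CD4+CD25high T cells that hold immune responses in check) of DJ-1-/- mice (KO), which lack the protein encoded by Park7, with those of DJ-1+/+ littermates (WT). Tregs came from spleens of untreated males aged 45 weeks, housed free of specific pathogens, by cell sorting, with 3 KO and 3 WT mice and 1 Affymetrix Mouse Gene 2.0 ST array per mouse. Which cells lacked DJ-1 other than Tregs, and how the knockout was made, is not given in the sources used here.

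Interferon gamma, released mainly by activated T cells and natural killer cells, binds a receptor of the chains Ifngr1 and Ifngr2 and activates the kinases Jak1 and Jak2. Target genes are then switched on, in part through the transcription factor Irf1. Among the most strongly induced targets in mouse cells are the guanylate-binding proteins (GBPs) and the immunity-related GTPases (IRGs), which bind to the vacuoles of intracellular parasites and bacteria and help to disrupt them. Many of the same genes also respond to type I interferons. In T cells they serve as a readout of interferon exposure, and Irgm1 is known to protect mouse T cells from death after interferon gamma signalling.

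All values are log2(intensity + 16), where a gene is the median of its probe sets, and a difference is KO minus WT on that scale. The labels were checked first on the targeted gene. Park7 was at 6.06, 5.96 and 5.71 in KO replicates 1 to 3, against 9.48, 9.27 and 9.70 in WT replicates 1 to 3. The Treg transcription factor Foxp3 averaged 12.72 ± 0.03 in KO and 12.66 ± 0.02 in WT (SD, n = 3 each), the CD25 gene Il2ra 12.55 ± 0.12 in KO and 12.55 ± 0.05 in WT, the coreceptor Cd4 11.47 ± 0.20 in KO and 11.59 ± 0.09 in WT, and the T cell receptor subunit Cd3e 12.68 ± 0.11 in KO and 12.88 ± 0.02 in WT, and none of the 4 passed the test. KO replicate 1 stood apart, correlating with the rest at a mean of 0.951 (0.957 to 0.964 for each other array) and a median over tested genes 0.09 log2 units below the gene means, so the differences of the GTPases and the counts of each list are also given without it. Precision is limited by the number of arrays.

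All 10 GTPases were lower in KO Tregs than in WT Tregs, by 0.29 to 0.80 log2 units. With the log2 undone, this is 0.819 to 0.575 times the WT value of intensity + 16. None of the 10 differences passed an adjusted p of 0.05 in limma, fitted over 13891 genes, where 0.274% of all tested genes passed (0.266% lower and 0.0072% higher in KO), and the adjusted p-values of the 10 lay between 0.158 for Gbp6 and 0.610 for Gbp3. The 3 KO values lay below all 3 WT values in 8 of the 10 genes, where 11.3% of all tested genes did, and above them in 0, where 6.1% did. At an unadjusted p of 0.05, 7 of the 10 were lower in KO, where 7.67% of all tested genes were, and without WT replicate 2 it was 4 of the 10, where 4.37% of all tested genes were. The median difference of the 10 was -0.46, beside -0.05 over all tested genes, of which 59.7% lay below 0. All 10 passed the filter on dim genes, and their KO means lay at 7.68 or more, above the floor of 5.90. In sorted cells taken as bulk, fewer cells with a transcript and less of it per cell cannot be told apart.

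**Figure D1:**
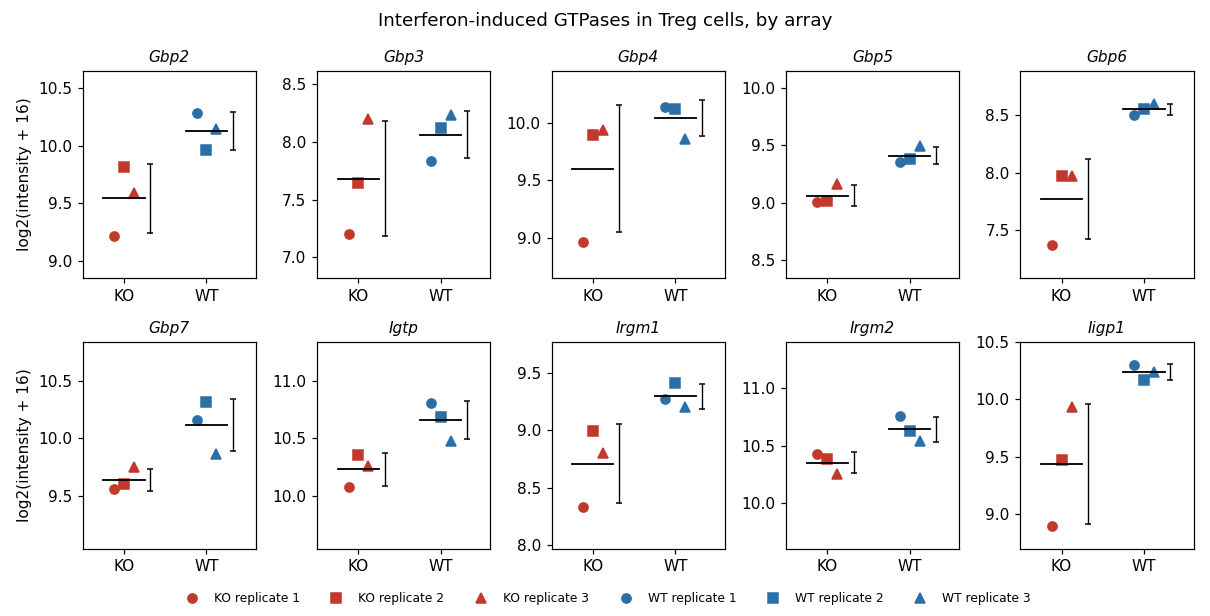
Level of each of the 10 GTPases as log2(intensity + 16), with KO arrays in red left of WT arrays in blue, symbols for replicates 1 to 3, the group mean as a black line and its SD (n = 3) as a bar beside it. Every panel spans the same range of log2 units. In 8 panels all KO points lie below all WT points, and Gbp3 and Gbp4 overlap.

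Without KO replicate 1, 8 of the 10 genes again lay wholly below WT (15.3% of all tested genes), 8 were lower at an unadjusted p of 0.05 (6.72% of all tested genes), and the median difference was -0.37, beside -0.01 over all tested genes. The mean of the 10 genes, each centred on its own mean, was -0.55, -0.14 and -0.07 in KO replicates 1 to 3, against 0.28, 0.28 and 0.21 in WT replicates 1 to 3. The groups did not overlap on this scale, and the WT arrays lay closer together than the KO arrays. KO replicate 1 was the lowest array for 9 of the 10 genes and KO replicate 3 for the other one, while the highest array was a WT array for each. The spread between replicates was larger in KO than in WT for 7 of the 10.

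The first group comprises the GBPs of chromosome 3, large GTPases of the dynamin superfamily. Gbp2, whose lipid-anchored protein coats parasite vacuoles in mouse cells, was at 9.22, 9.81 and 9.59 in KO replicates 1 to 3, against 10.29, 9.96 and 10.14 in WT replicates 1 to 3. No KO array reached the lowest WT array, WT replicate 2. The difference was -0.59 (SE 0.18, 95% interval -0.99 to -0.19), with a limma adjusted p of 0.281, and it was -0.43 without KO replicate 1. Gbp5, known in mouse macrophages for promoting inflammasome assembly, was at 9.005, 9.02 and 9.17 in KO replicates 1 to 3, against 9.36, 9.38 and 9.49 in WT replicates 1 to 3. Its replicates were the tightest of the chromosome 3 GBPs, with an SD of 0.09 in KO and 0.07 in WT. The difference of -0.35 (SE 0.13, 95% interval -0.64 to -0.05) did not pass (adjusted p = 0.391), and leaving out any 1 array kept it between -0.40 and -0.31 (-0.32 without KO replicate 1).

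Gbp7 was at 9.56, 9.60 and 9.75 in KO replicates 1 to 3, against 10.16, 10.32 and 9.87 in WT replicates 1 to 3. The KO arrays lay together, and WT replicate 3 was the WT array nearest to them. The difference was -0.48 (SE 0.16, 95% interval -0.83 to -0.13, adjusted p = 0.307), and -0.44 without KO replicate 1. Gbp3 was at 7.202, 7.64 and 8.20 in KO replicates 1 to 3, against 7.83, 8.12 and 8.24 in WT replicates 1 to 3. Its groups overlapped, since KO replicate 3 lay above WT replicates 1 and 2. The difference of -0.38 (SE 0.24, 95% interval -0.92 to 0.15, adjusted p = 0.610) was -0.15 without KO replicate 1, -0.64 without KO replicate 3 and -0.16 with array weights.

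The other 2 GBPs lie on chromosome 5, in a cluster of closely related genes whose signals may not be fully separate on the array. Gbp6 had a single probe set, at 7.37, 7.97 and 7.97 in KO replicates 1 to 3, against 8.51, 8.55 and 8.60 in WT replicates 1 to 3. The WT arrays lay close together (SD 0.05), and each KO array lay below them. The difference was -0.78 (SE 0.18, 95% interval -1.19 to -0.38), with the smallest adjusted p of the 10 (0.158), and -0.58 without KO replicate 1. Gbp4 was at 8.97, 9.90 and 9.94 in KO replicates 1 to 3, against 10.14, 10.12 and 9.86 in WT replicates 1 to 3. KO replicates 2 and 3 lay above WT replicate 3, and KO replicate 1 lay far below all others. The difference of -0.44 (SE 0.25, 95% interval -0.99 to 0.12, adjusted p = 0.580) was -0.12 without KO replicate 1 and -0.23 with array weights.

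The IRGs comprise regulators and effectors. Irgm1, Irgm2 and Igtp (also called Irgm3) are the regulators, which sit on the cell's own membranes and hold the effector IRGs inactive there. Irgm1 was at 8.33, 8.997 and 8.80 in KO replicates 1 to 3, against 9.28, 9.41 and 9.20 in WT replicates 1 to 3. The groups did not overlap, and KO replicate 1 was the farthest from WT. The difference was -0.59 (SE 0.18, 95% interval -0.997 to -0.18, adjusted p = 0.294), and -0.40 without KO replicate 1. Igtp, a GTPase of the endoplasmic reticulum, was at 10.08, 10.36 and 10.26 in KO replicates 1 to 3, against 10.80, 10.69 and 10.48 in WT replicates 1 to 3. Each KO array lay below the lowest WT array, WT replicate 3, and the difference was -0.43 (SE 0.15, 95% interval -0.76 to -0.09, adjusted p = 0.346). It was -0.35 without KO replicate 1 and -0.25 with the mean of its probe sets in place of their median, where the limma unadjusted p was 0.084.

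Irgm2, found at the Golgi apparatus, was at 10.43, 10.38 and 10.25 in KO replicates 1 to 3, against 10.76, 10.62 and 10.54 in WT replicates 1 to 3. It differed the least of the 10 (-0.29, SE 0.14, 95% interval -0.59 to 0.01, adjusted p = 0.498), and it was the one gene for which KO replicate 1 was the highest KO array. Its difference was -0.33 without KO replicate 1. Iigp1, also called Irga6, is an effector that loads onto the vacuole of Toxoplasma. It was at 8.90, 9.48 and 9.94 in KO replicates 1 to 3, against 10.30, 10.17 and 10.24 in WT replicates 1 to 3. The WT arrays lay close together (SD 0.07) and the KO arrays far apart (SD 0.52), without overlap. Iigp1 had the largest difference of the 10 (-0.80, SE 0.23, 95% interval -1.32 to -0.28, adjusted p = 0.266), which was -0.53 without KO replicate 1.

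The 2 families were alike in range. The 6 GBPs had differences from -0.78 to -0.35 with a median of -0.46, and the 4 IRGs from -0.80 to -0.29 with a median of -0.51. Whether any of the 10 differed from another was not tested. Each of the 95% intervals of the 10 genes held all values from -0.59 to -0.38. Ranked among all tested genes from the most negative difference, Iigp1 lay within the lowest 0.914%, Gbp6 within the lowest 0.950% and Irgm2 within the lowest 15.7%.

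**Figure D2:**
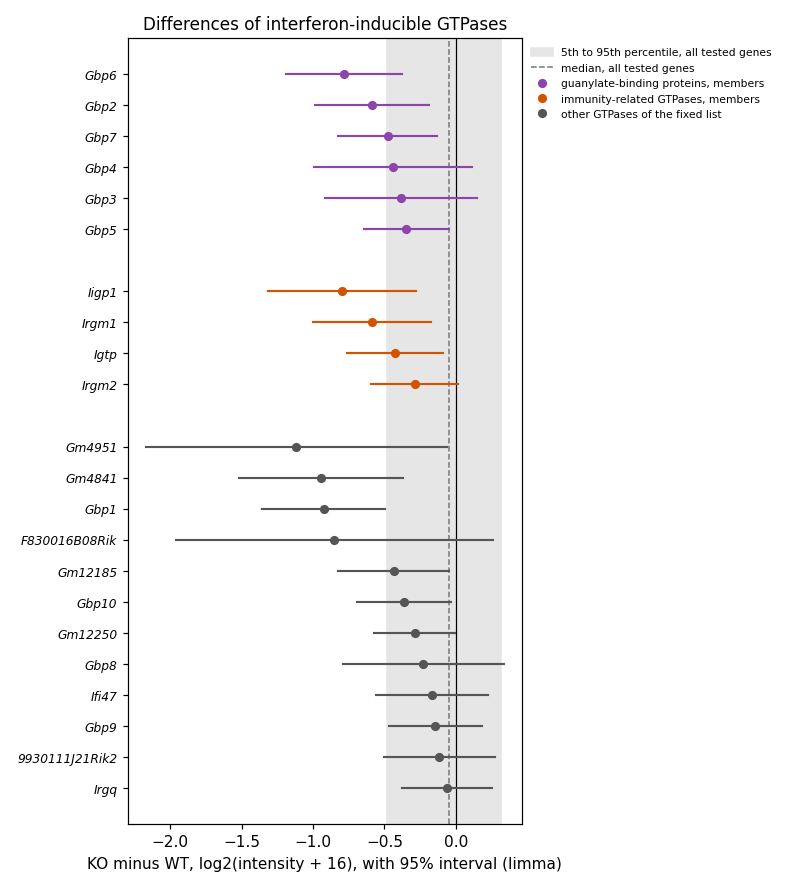
KO minus WT difference in log2(intensity + 16), as a point with its limma 95% interval, for the 6 GBPs (purple), the 4 IRGs (orange) and 12 other tested GTPases of the fixed list (grey). The grey band spans the 5th to the 95th percentile of all tested genes (-0.48 to 0.31), and every point of the 3 groups lies below 0.

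The promoter sequences below show the stretch that holds the best known interferon element of these genes. Whether this element has a part in the differences between KO and WT was not tested. The interferon-stimulated response element (ISRE) is bound by Irf1 and other interferon regulatory factors, and its core was searched as 2 copies of GAAA with any 2 bases between them, which reads as 2 copies of TTTC on the other strand. RefSeq promoters of build GRCm38.p6, from 250 bases before to 50 after the start, were searched for 7 of the 10 genes. Gbp4, Gbp6 and Iigp1 were not among them, so whether these hold the core was not tested. All 7 genes searched held the core upstream of the start, where 2.98% of 32851 promoters did. A gene counted with a match at any of its starts (8 promoters for the 7 genes), while the share is per promoter. The genes were chosen as interferon targets, so holding the element is what the choice selects. Each line gives 40 bases on the gene's strand, 5′ to 3′, with the core in capitals.
Gbp2 (chr3:142620589-142620628, + strand): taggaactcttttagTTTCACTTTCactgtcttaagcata
Gbp3 (chr3:142559990-142560029, + strand): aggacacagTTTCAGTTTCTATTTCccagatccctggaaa
Gbp5 (chr3:142496754-142496793, + strand): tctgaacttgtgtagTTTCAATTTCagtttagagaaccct
Gbp7 (chr3:142530268-142530307, + strand): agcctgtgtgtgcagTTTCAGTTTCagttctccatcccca
Igtp (chr11:58199507-58199546, + strand): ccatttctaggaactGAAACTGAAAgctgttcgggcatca
Irgm2 (chr11:58214898-58214937, + strand): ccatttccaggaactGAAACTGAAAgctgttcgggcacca
Irgm1 (chr11:48871421-48871460, - strand): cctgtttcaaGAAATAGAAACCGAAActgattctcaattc

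In Gbp3 and Irgm1 2 overlapping matches run together. The windows of Igtp and Irgm2 differed at 2 of 40 bases, while the 4 GBP windows differed from each other at 16 to 26. Bases were compared position by position without alignment, and the first match of Gbp3 begins earlier in its window than those of the other GBPs. The counts are therefore no measure of how far the sequences diverged. A second start listed for Gbp3 held no match upstream. The gamma-activated site, another element of interferon gamma targets, searched as TTCNNNGAA (the same on both strands), was found in 4 of the 7 genes, Gbp5, Gbp7, Igtp and Irgm2, where 8.30% of promoters held it. In Igtp and Irgm2 it lies in the printed window just before the core, and it shares no base with it. Igtp and Irgm2, with near-identical windows, had differences of -0.43 and -0.29. A match describes letters and does not show a bound factor. As with the core, finding this site in genes chosen as interferon targets is no test of the list.

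Single probe sets gave the same direction with more scatter. Of the 65 probe sets, 62 were lower in KO, where 53% of all probe sets were. No probe set of the 10 genes passed when all 269751 were tested (0.00111% passed), and 15 were lower at an unadjusted p of 0.05, where 4.37% of all probe sets were. In 32 of the 65 the KO arrays lay wholly below the WT arrays (7.64% of all probe sets), and in 0 wholly above (6.17%). Probe sets of 1 gene share its transcripts and are not separate replicates. The 3 with a positive difference were 1 of 11 for Gbp3 (0.21), 1 of 14 for Gbp5 (0.49) and 1 of 7 for Igtp (0.36). Those of Gbp5 and Igtp were dimmer than the median probe set of the array, and among the 60 brighter ones 59 were lower in KO.

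The probe set with the smallest p was 17403212 of Gbp5, with intensities of 457, 481 and 580 in KO replicates 1 to 3, against 851, 815 and 908 in WT replicates 1 to 3. Every KO array lay below every WT array, with a difference of -0.75 (SE 0.15) and a limma adjusted p of 0.499. The other 13 probe sets of Gbp5 ranged from -0.92 to 0.49. The 7 probe sets of Gbp2 were all lower in KO (-0.67 to -0.27), as were all 9 of Gbp7 (-0.67 to -0.16), all 4 of Gbp4 (-0.58 to -0.18), all 6 of Irgm1 (-0.76 to -0.11), both of Irgm2 (-0.30 and -0.27) and all 4 of Iigp1 (-1.23 to -0.36).

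**Figure D3:**
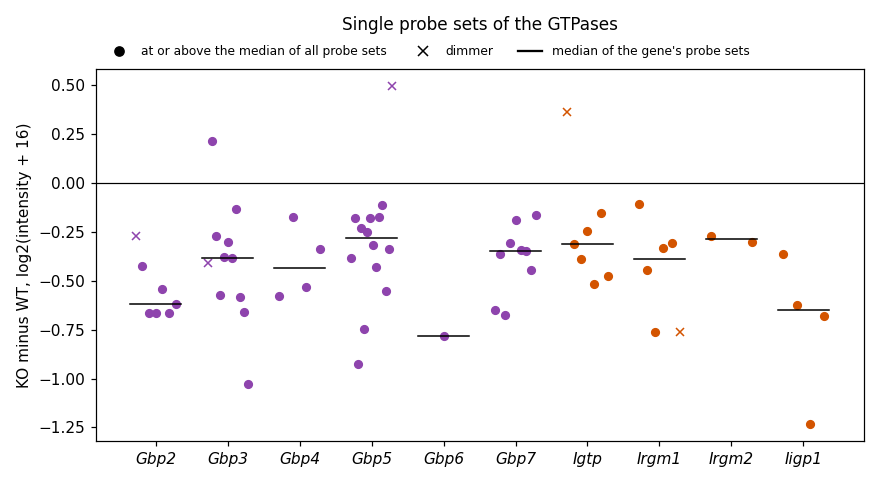
KO minus WT difference in log2(intensity + 16) of each of the 65 probe sets, grouped by gene, with circles for probe sets at or above the median brightness of the array, crosses for dimmer ones and a line at the gene's median. Only 3 points, in Gbp3, Gbp5 and Igtp, lie above 0.

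KO replicate 1 departed from the other KO arrays at some probe sets of a gene and not at others. Iigp1 probe set 17350930 had intensities of 508, 1456 and 1643 in KO replicates 1 to 3, against 2749, 2488 and 2394 in WT replicates 1 to 3. Probe set 17350929 of the same gene had 1838, 1748 and 1884 in KO, against 3086, 2624 and 2757 in WT. Both were lower in KO, but KO replicate 1 was far below the other KO arrays at the first and between them at the second. Irgm1 probe set 17262205 had 467, 1421 and 1325 in KO, against 1964, 1908 and 1180 in WT, while probe set 17262207 had 2593, 2419 and 1965 in KO, against 3117, 2670 and 2832 in WT. These 4 probe sets were chosen after their values were seen. Among the 60 brighter probe sets of the 10 genes, 8 were lower in KO replicate 1 than in the mean of the other KO arrays by at least 1 log2 unit (13.3%), beside 8.65% of the 134876 brighter probe sets of the array. The medians of this departure were -0.29 for the 10 genes and -0.08 for the array.

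**Figure D4:**
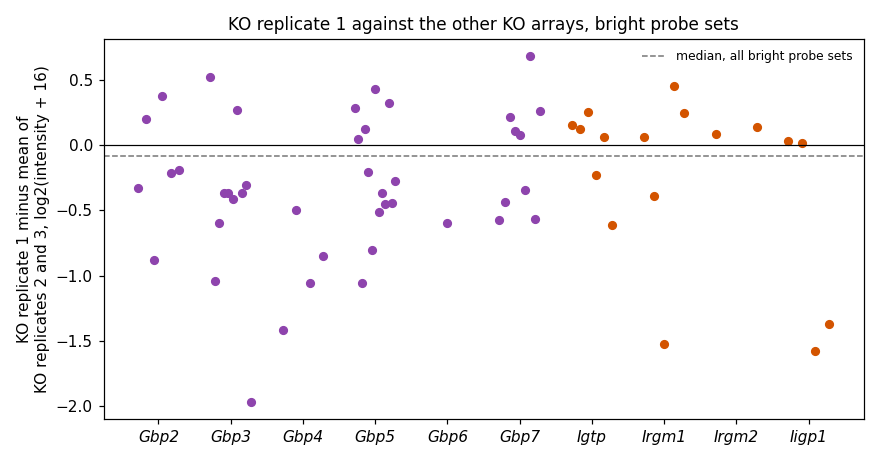
KO replicate 1 minus the mean of KO replicates 2 and 3, in log2(intensity + 16), for each brighter probe set of the 10 genes, with a dashed line at the median of all brighter probe sets (-0.08). Within Gbp3, Irgm1 and Iigp1 at least 1 probe set lies below -1.5 while others of the same gene lie above 0.

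Other GTPases were taken from a list of 22 names of the GBP, IRG, Mx and related families. Of these, 17 were on the array with a single symbol and 12 were bright enough to test. All 12 tested had a negative difference (median -0.33, beside 59.7% below 0 and a median of -0.05 over all tested genes), 0 passed the threshold in limma over all genes (0.274% of all tested genes passed), and 6 were lower at an unadjusted p of 0.05 (7.67% of all tested genes). Without KO replicate 1, 10 of the 12 were below 0, 5 were lower at an unadjusted p of 0.05 (6.72% of all tested genes), and the median was -0.27. The 4 with the smallest p were Gbp1, Gm4841, Gm12185 and Gbp10. Gbp1, now named Gbp2b and the neighbour of Gbp2, was at 6.55, 7.13 and 7.14 in KO replicates 1 to 3, against 8.04, 7.63 and 7.92 in WT replicates 1 to 3. Its groups did not overlap, and its difference was -0.93 (SE 0.19, adjusted p = 0.118), and -0.73 without KO replicate 1. The predicted GTPase gene Gm4841 differed by -0.94 (SE 0.26, adjusted p = 0.237), and it stood at -0.61 once KO replicate 1 was left out and at -0.55 with the mean of its probe sets. Gm12185 differed by -0.44 (adjusted p = 0.414; -0.27 with the mean of its probe sets) and Gbp10, of the chromosome 5 cluster, by -0.36 (adjusted p = 0.418). Of the 5 too dim to test, Gbp11 and Mx1 were higher in KO by 0.39 and 0.27 and the others lower. The antiviral Mx1 and Mx2 were among them, with means of 5.91 ± 0.37 and 5.25 ± 0.17 in KO, and 5.65 ± 0.17 and 5.50 ± 0.33 in WT (SD, n = 3 each).

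The next comparison followed the pathway upstream of the GTPases. The ligand, receptor and kinase genes lay on both sides of 0. Ifng, the cytokine itself, was at 6.81, 7.03 and 6.60 in KO replicates 1 to 3, against 7.02, 6.94 and 6.67 in WT replicates 1 to 3, and the groups overlapped (difference -0.07, 95% interval -0.43 to 0.30, adjusted p = 0.911). Its sign turned without KO replicate 3 (0.038) and without WT replicate 1 (0.0027), and it was -0.29 with bright probe sets alone. Ifngr1, the ligand-binding chain, averaged 11.95 ± 0.11 in KO and 11.87 ± 0.12 in WT (SD, n = 3 each), a difference of 0.08 (95% interval -0.23 to 0.39, adjusted p = 0.867). Ifngr2, the second receptor chain, averaged 10.24 ± 0.12 in KO and 10.06 ± 0.25 in WT, a difference of 0.18 (95% interval -0.18 to 0.54, adjusted p = 0.726). These intervals hold 0 and do not show that the levels were equal.

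Transcription factors and targets of the pathway come next. Irf1, the transcription factor that acts on many GTPase promoters, was at 9.82, 9.84 and 9.85 in KO replicates 1 to 3, against 10.09, 9.97 and 10.12 in WT replicates 1 to 3. All KO arrays lay below all WT arrays, and the difference of -0.22 (95% interval -0.51 to 0.07) did not pass (adjusted p = 0.590). It was -0.21 without KO replicate 1 and -0.07 with the mean of its probe sets. Psmb9, an interferon-induced proteasome subunit, was at 8.95, 8.85 and 8.99 in KO, against 9.65, 9.68 and 9.72 in WT. Its groups lay far apart relative to their spread, with a difference of -0.75 (SE 0.13) just outside the threshold (adjusted p = 0.0554, between 0.0178 and 0.274 over the alternatives). It was -0.76 without KO replicate 1 and -0.45 with the mean of its probe sets. The chemokine Cxcl10 differed by -0.94 (SE 0.19, adjusted p = 0.110) and the peptide transporter subunit Tap2 by -0.77 (SE 0.19, adjusted p = 0.193), and by -0.96 and -0.88 without KO replicate 1. Tap2 differed by only -0.20 with the mean of its probe sets (adjusted p = 0.481) and by -0.13 with bright probe sets alone (adjusted p = 0.772). Psme2, a proteasome activator subunit, differed by -0.44 (adjusted p = 0.314) as the median of its probe sets and by 0.17 as their mean, so its direction depends on the probe set.

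Of the 30 names of the pathway list, 29 were on the array with a single symbol and 26 were tested, and 0 passed in limma in either direction (0.274% of all tested genes passed). At an unadjusted p of 0.05, 7 were lower in KO (7.67% of all tested genes) and 0 higher, and 11 lay wholly below WT (11.3% of all tested genes). The median difference was -0.18, with 19 of 26 below 0, beside -0.05 and 59.7% over all tested genes. Without KO replicate 1, 20 of 26 were below 0, 8 were lower at an unadjusted p of 0.05 (6.72% of all tested genes), 13 lay wholly below WT (15.3%), and the median was -0.15. By role, 2 of 5 ligand, receptor and kinase genes lay below 0, as did 5 of 7 transcription factors and feedback inhibitors, all 8 genes of the proteasome and peptide loading, and 4 of 6 chemokines and other targets. The 8 proteasome and peptide loading genes ranged from -0.77 (Tap2) to -0.06 (Tapbp), and none passed. The list was drawn up with earlier results of these arrays known, so its direction is no separate support.

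**Figure D5:**
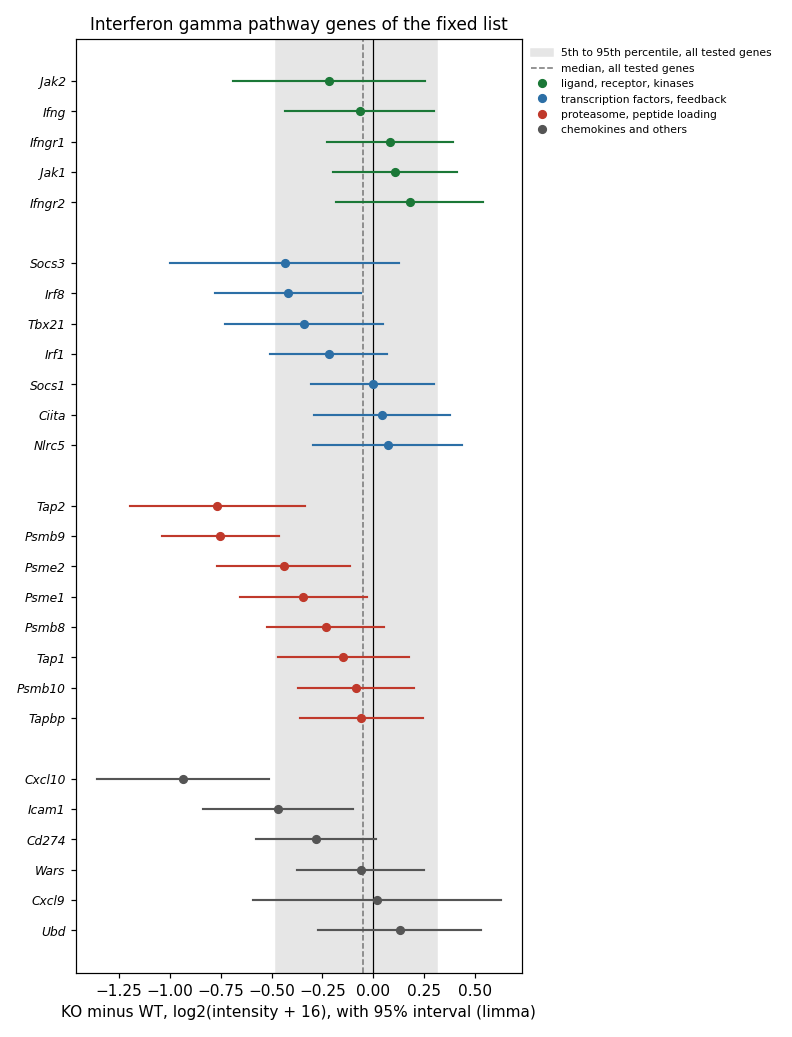
KO minus WT difference in log2(intensity + 16), as a point with its limma 95% interval, for the 26 tested genes of the interferon gamma pathway list, coloured by role, with the band of the 5th to the 95th percentile of all tested genes in grey. All 8 points of the proteasome and peptide loading group lie below 0 (Psme2 lies above it with the mean of its probe sets), and the ligand, receptor and kinase points lie on both sides of it.

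Macrophages, B cells and dendritic cells also express these GTPases, so markers of other cells were set beside them. The summed intensity of 7 macrophage and monocyte markers ranged from 330 to 357 in KO and from 383 to 597 in WT, without overlap. All 7 were lower in KO, and Emr1, Cd14 and Lyz2 lay under the filter floor. The 2 CD8 T cell markers summed to 361 to 436 in KO and to 458 to 505 in WT, also without overlap. They went opposite ways, since Cd8b1, the brighter one, lay wholly below WT (-0.30), while Cd8a differed by 0.03 with overlap. The 4 B cell markers summed to 767 to 886 in KO and to 734 to 1121 in WT, the 3 plasma cell markers to 1410 to 1738 in KO and to 1596 to 2041 in WT, the 5 dendritic cell markers to 180 to 275 in KO and to 249 to 302 in WT, and the 4 natural killer cell markers to 547 to 663 in KO and to 592 to 713 in WT, all with overlap. Within these sums, the natural killer cell receptor Ncr1 was at 5.99, 6.54 and 6.61 in KO replicates 1 to 3, against 6.90, 7.19 and 7.61 in WT replicates 1 to 3, a difference of -0.85 (adjusted p = 0.212) without overlap. Klrb1c, another such receptor, lay wholly above WT (0.28, adjusted p = 0.552), and the plasma cell gene Igj differed by -0.85 with overlap (adjusted p = 0.362). These 3 markers were chosen after their values were seen. The plasma cell sum mostly follows Xbp1, which averaged 10.53 in KO and 10.73 in WT. Igj averaged 6.40 in KO and 7.25 in WT, and Sdc1 6.09 and 6.03. No marker of these lists passed the test, and the erythroid marker Alas2 lay under the floor, as did all 4 neutrophil markers, whose sum was 122 to 124 in KO and 102 to 115 in WT. The B cell markers Ms4a1 and Pax5 and the dendritic cell markers Itgax, Flt3 and Siglech also lay under it. Only 2 of the 4 B cell markers and 2 of the 5 dendritic cell markers were therefore tested. The 6 Treg and CD4 T cell markers summed to 27758 to 29076 in KO and to 29826 to 30034 in WT, without overlap. Singly, 2 of the 6 lay wholly below WT and 1, Foxp3, wholly above it. The part of all these markers in the lower GTPase values was not tested.

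A search for genes that followed the mean of the 10 GTPases left out the 10 themselves and predicted, non-coding and some other gene names. Of the rest, Serinc5, Pion (now named Gsap), Fam3c, Cops7a and Trim16 followed that mean most closely over the 6 arrays. The measure was the root mean square distance between centred log2 values over 6 arrays, and it ran from 0.015 for Serinc5 to 0.059 for Trim16. The 10 GTPases themselves lay at 0.11 to 0.23 from their mean. These 5 genes were the nearest of the tested genes searched, so a short distance is what the choice selects.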

How the data were processed

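Intensities were measured on 1 Affymetrix Mouse Gene 2.0 ST array per mouse. Per the labels, the deposited intensities were made by the authors in Affymetrix Expression Console 1.4 (PLIER, exon level) and are linear; background correction and normalization between arrays are not given in the sources used here. Sample titles gave the groups and replicate numbers, and the labels name a separate mouse per array.

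Intensities were taken as log2(intensity + 16), which understates differences of dim probe sets. Probe sets with 1 symbol in the platform annotation were reduced to their median per gene (233753 of 269751 probe sets had 1 symbol, 5106 several and 30892 none). Genes with a mean under the 40th percentile (5.90) were left out, leaving 13891 of 23152. Tests of KO against WT used limma 3.58.1 (lmFit, eBayes, two-sided) in R 4.3.3, with Benjamini-Hochberg adjustment over all tested genes and a threshold of 0.05; all adjusted p-values are from limma. Probe sets were tested the same way. Current names came from RefSeq (GRCm38.p6).

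The members and gene lists were chosen with earlier results of these data known. The text names all members, of each other list the genes past the threshold or else the 4 with the smallest p, fixed control and pathway genes, the probe set with the smallest p and the 5 genes nearest to the members' mean. Predicted, non-coding and some other gene names were left out before these 5 were picked.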

Additional observations from a re-analysis of the deposited data

How the results depend on the processing

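All 10 GTPases kept a negative difference in all 18 refits, and 0 passed the threshold of 0.05 in any, nor did any of their probe sets in 15 refits. At 0.10 none passed with the settings of the report, while the mean of probe sets gave Gbp2 an adjusted p of 0.0743 and Gbp6 one of 0.0889, and the lowest over all refits was 0.0625 (Gbp6). The median difference lay between -0.61 and -0.37. Between 7 and 9 of the 10 lay wholly below WT, where 8.91% to 19.9% of all genes fitted did, counts added after the data were seen. The number lower at an unadjusted p of 0.05 lay between 4 (without WT replicate 2) and 9 with an array left out, where 4.37% to 9.87% of all tested genes were. Without KO replicate 1, Gbp3 differed by -0.15, Gbp4 by -0.12 and Iigp1 by -0.53.

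The 38 genes past the threshold became 59 with the mean of probe sets, 125 with array weights, 67 with the replicate block, 74 at an adjusted p of 0.10, 0 in an unmoderated test (Park7 -3.57, adjusted p = 0.0905), and 4 to 37 with an array left out (4 with WT replicate 1 or 2 out, 7 with WT replicate 3 out, 11 with KO replicate 3 out). The 3 probe sets past it became 79 and 8 with offsets of 1 and 64, 7 with quantile normalization, 10 with median centring, 13 with a trend, 7 with array weights, 6 unmoderated, 17 among bright ones, 0 with the replicate block and 0 to 2 with an array left out. Of the pathway list, 1 gene passed with an offset of 64, a filter at the 60th percentile, bright probe sets or a trend (Psmb9) and with the replicate block (Cxcl10), and 2 with array weights. Other signs turned for Psme2 (0.17) and Il2ra (0.0040) with the mean of probe sets, for Il2ra with quantile normalization (0.0033) and median centring (0.034), and, with an array left out, for Il2ra (-0.070 to 0.050) and Ifng (-0.18 to 0.038). Same-numbered arrays' deviations correlated at 0.15, 0.17 and 0.01, and those of KO and WT arrays with unlike numbers at -0.19 to 0.09. With so few arrays these values cannot settle whether the numbers mark pairs. The main fit did not take them as pairs, and the replicate block passed none of the 10. The cause of these shifts was not tested.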

Other observations

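Of the probe sets that name more than 1 gene, 3 carried both Gbp2 and Gbp1 and entered no gene value. Probe set 17403270 had intensities of 572, 750 and 654 in KO replicates 1 to 3, against 1151, 1037 and 1084 in WT replicates 1 to 3, so every KO array lay below every WT array (difference -0.72 in log2(intensity + 16)). Probe set 17403271 had 548, 601 and 463 in KO, against 771, 495 and 810 in WT, and 17403272 had 449, 376 and 406 in KO, against 582, 750 and 328 in WT. Both of these overlapped, with differences of -0.33 and -0.35.

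Single arrays set 2 of the values of other GTPases, named here after their values were seen. Gm4951 was at 6.21, 5.37 and 6.05 in KO replicates 1 to 3, against 6.38, 8.30 and 6.30 in WT replicates 1 to 3, so WT replicate 2 lay far above all other arrays. F830016B08Rik was at 6.52, 8.51 and 8.81 in KO, against 8.92, 9.05 and 8.43 in WT, so KO replicate 1 lay far below all others.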
